A study of Mus musculus with 12 samples.

Results

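The cell-division programme described here comprised 40 mouse genes that copy DNA or carry cells through mitosis, chosen by name. All 40 were found by Ensembl gene ID among the 48709 IDs of the deposited count tables, and all 40 were among the 14408 genes tested after removal of genes with low counts. They were divided by role into 22 S-phase genes and 18 mitotic genes. The samples were cultured mouse embryonic fibroblasts (MEFs) of the C57BL/6 strain, grown in serum-containing medium. WT cells and isogenic cells labelled TAZKo, described in the study's design as lacking tafazzin, were each kept in normoxia or placed for 24 h in a hypoxia workstation, with 3 samples in each of the 4 groups. Tafazzin is the enzyme that remodels cardiolipin, a lipid of mitochondria. The labels give neither the oxygen level, nor how the TAZKo cells were made, nor whether samples of a group came from separate cultures, so p-values measure the spread between these samples, which may be technical.

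Before a cell divides, the origin recognition complex, Cdc6 and Cdt1 load the MCM2-7 ring onto DNA, and Cdc45 and the GINS complex join it to form the active helicase. Transcription of these genes is driven mainly by E2F factors at the G1/S boundary, after cyclin D and cyclin E kinases inactivate the Rb family. Mitotic genes peak later, in G2 and M, under the MuvB complex with B-Myb and FoxM1, which act through the CHR element and often a neighbouring CCAAT box. In cultured fibroblasts the transcripts of both groups follow the share of cells that are cycling. In bulk RNA, fewer cycling cells and less RNA per cycling cell cannot be told apart.

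The stretch before the start site is printed for genes on which the results turn, so that the E2F, CHR and CCAAT letters can be seen. Each sequence is the 160 bases before the RefSeq start, 5′ to 3′ on the gene's strand (build GRCm38.p6). Capitals mark the words searched on both strands: the E2F words TTTCCCGC, TTTCGCGC, TTTGCCGC and TTTGGCGC, the CHR word TTTGAA, and CCAAT. Words may overlap. Mcm6 and Rrm2 had the largest S-phase differences between genotypes. Plk1 was called between genotypes in each condition and between conditions in each genotype. Cdk1 was the only member called higher in TAZKo libraries, and Cdc20 was added after its values and sequence were seen.
Mcm6 (chr1:128359706-128359865, minus strand): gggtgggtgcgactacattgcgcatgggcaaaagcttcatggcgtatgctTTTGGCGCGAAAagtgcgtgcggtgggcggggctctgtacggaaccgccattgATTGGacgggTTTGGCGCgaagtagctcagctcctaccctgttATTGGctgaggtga
Rrm2 (chr12:24708094-24708253, plus strand): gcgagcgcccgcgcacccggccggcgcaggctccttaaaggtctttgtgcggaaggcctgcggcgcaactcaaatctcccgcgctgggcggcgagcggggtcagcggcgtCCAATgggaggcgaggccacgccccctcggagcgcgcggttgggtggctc
Plk1 (chr7:122159275-122159434, plus strand): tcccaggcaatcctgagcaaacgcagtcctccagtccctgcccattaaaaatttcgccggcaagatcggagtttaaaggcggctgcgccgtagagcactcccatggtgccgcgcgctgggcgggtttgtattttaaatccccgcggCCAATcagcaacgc
Cdk1 (chr10:69352913-69353072, minus strand): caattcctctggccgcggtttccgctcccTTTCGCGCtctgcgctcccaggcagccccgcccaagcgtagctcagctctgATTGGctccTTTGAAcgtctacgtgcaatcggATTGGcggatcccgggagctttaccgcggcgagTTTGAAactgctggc
Cdc20 (chr4:118437344-118437503, minus strand): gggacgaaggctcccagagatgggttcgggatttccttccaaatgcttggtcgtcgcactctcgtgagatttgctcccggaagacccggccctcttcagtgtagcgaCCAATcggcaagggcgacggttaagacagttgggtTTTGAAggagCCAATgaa

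An entry in the RefSeq promoter table was matched for 32 of the 40 genes. Over the 250 bases before the start, an E2F word stood in 5 of 17 S-phase promoters (29.4%) and 1 of 15 mitotic promoters (6.67%), against 1.86% of all 32851 promoters of that length. The CHR word stood in 3 of 17 S-phase promoters (17.6%) and 6 of 15 mitotic promoters (40%), against 16.0% of all promoters. CCAAT stood in 12 of 17 (70.6%) and 14 of 15 (93.3%), against 33.8% of all. A match describes letters in this window and says nothing of binding in these cells.

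Total counts ran from 21039451 to 31204510 per sample, and the 40 genes took 0.775% to 1.02% of them. The lowest member, E2f2, stood at 15.5 CPM or more in every sample (CPM, counts scaled to library size by TMM), where 3 counts equal 0.0927 to 0.15 CPM. The transcript of the targeted gene Taz was not reduced: it stood at 32.7 to 38.0 CPM in the libraries labelled WT and 39.8 to 45.8 CPM in those labelled TAZKo in normoxia, and at 23.5 to 26.4 and 32.8 to 35.1 CPM in hypoxia. Genotype directions below therefore rest on the labels. Of 10 fibroblast markers, 8 passed the filter, with summed levels of 10020 to 13100 CPM, while Thy1 and Lum were under 1 CPM in every group. Of 7 blood markers, 5 were under 1 CPM in every group, Ptprc and Adgre1 among them, and the 2 that were tested rose with hypoxia in both genotypes; the sum of the list was 4.49 to 5.57 CPM in WT normoxia, 4.48 to 5.3 in TAZKo normoxia, 11.9 to 13.97 in WT hypoxia and 8.13 to 10.01 in TAZKo hypoxia. Of 5 skeletal muscle markers, 4 were under 1 CPM, Myod1 among them, and the sum was 3.82 to 5.04, 9.02 to 10.1, 2.85 to 4.51 and 5.57 to 6.51 CPM in that order, with the 1 tested marker higher in TAZKo libraries in both conditions. The 5 neural markers, 4 of them under 1 CPM, summed to 33.4 to 40.3, 22.5 to 28.2, 44.5 to 61.4 and 35.02 to 37.4 CPM, with both tested markers lower in TAZKo libraries in both conditions. The summed level of 6 epithelial markers, of which Epcam, Cdh1 and Krt5 were under 1 CPM in every group and Krt8 in all but WT normoxia, was 345 to 431 CPM in WT normoxia against 196 to 211 in TAZKo normoxia, and 315 to 345 against 256 to 258 in hypoxia; the 5 endothelial markers summed to 18.3 to 21.2 against 5.85 to 7.88 CPM and 14.6 to 20.6 against 4.28 to 5.5 CPM, with Pecam1, Cdh5 and Vwf under 1 CPM throughout. The part of any such cells in the differences between genotypes or conditions was not tested.

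Several libraries deviated from their group along GC content. Across the 40 genes, the log2 ratio of WT normoxia sample 1 to the mean of samples 2 and 3 followed the GC content of the longest transcript (Spearman rho 0.85 over 40 genes of 1 library, a description). It ran from -0.95 for Ccne2, whose longest transcript has 36.3% GC, to 0.36 for Gins2, with 53.4%. WT hypoxia sample 1 (rho 0.68) and TAZKo hypoxia sample 2 (0.54) deviated from their groups in the same direction and TAZKo hypoxia sample 3 in the opposite one (-0.70). The median absolute deviation over the 40 genes was 0.163 on the log2 scale in WT normoxia sample 1, 0.137 in WT hypoxia sample 1, and 0.056 and 0.059 in these TAZKo samples. Because the S-phase genes (median 49.2% GC) and the mitotic genes (47.6%) both span this range, results that rest on 1 of these samples are given with and without it.

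**Figure D1:**
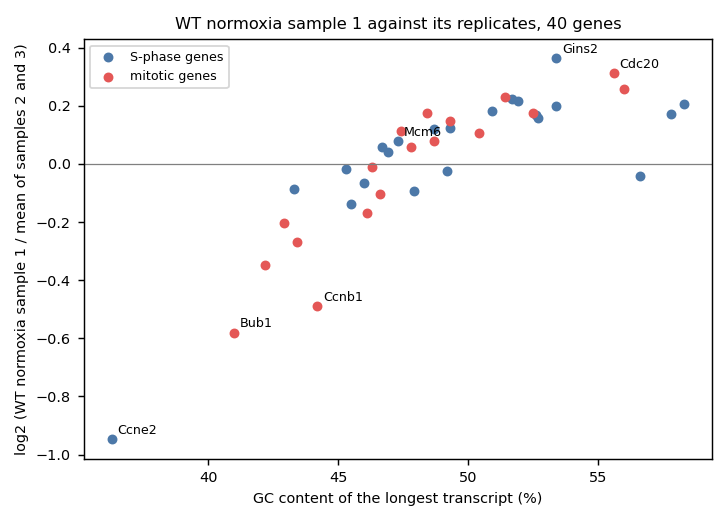
Each point is 1 of the 40 genes: the x axis gives the GC content of its longest transcript (%), and the y axis gives the log2 ratio of WT normoxia sample 1 to the mean of WT normoxia samples 2 and 3. The low-GC genes Ccne2, Bub1 and Ccnb1 lie lowest and Gins2, at 53.4% GC, lies highest, with a Spearman rho of 0.85.

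Per kilobase of annotated exon, the programme covered a wide range of levels in WT normoxia. Top2a, the topoisomerase that untangles sister chromosomes, was highest at 236 ± 24.6 CPM per kb (SD, n = 3), followed by Mcm3 at 150.5 ± 10.5 and Rrm1 at 147 ± 5.11, which differed by less than their spread. The other MCM2-7 genes lay between 101 ± 3.59 (Mcm6) and 144 ± 12.8 (Mcm5) CPM per kb. The lowest were E2f2 at 3.66 ± 0.116 (SD, n = 3), Gins3 at 8.92 ± 0.608 and Ccne1 at 12.1 ± 0.796 CPM per kb. Levels of 9 genes are uncertain because more than 10% of the 50-base words of their longest transcript also occur in another gene: Gins2 (70.3%, with Gse1), Ccnb1 (42.1%, with Ccnb1-ps), Mcm7 (34.2%, with Gm5487), Pcna (31.8%, with Pcna-ps2), Kif20a (31.2%, with Cdc23), Ccne2 (17.4%, with Ints8), Ccna2 (15.9%, with Exosc9), Cdc20 (11.6%) and Plk1 (10.9%).

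The first comparison asks how the programme differed between TAZKo and WT libraries before hypoxia. In normoxia, libraries labelled TAZKo had lower levels of 15 of the 40 genes and a higher level of 1, Cdk1, by the edgeR quasi-likelihood test with Benjamini-Hochberg adjustment over all genes tested. Those are 37.5% lower and 2.5% higher, against 14.9% lower and 15.6% higher among all genes, of which 30.4% were called in either direction. The median log2 difference was -0.15 over the 40 genes and 0.01 over all genes, and 34 of the 40 were negative. The samples of the groups did not overlap for 20 genes that were lower and 1 that was higher, against 20.9% and 22% of all genes. No test of the list was made. With the replicate number as a block, 5 more genes were lower: Mcm3 (-0.14, adjusted p = 0.0454), Cdc45 (-0.16, 0.0285), Gins2 (-0.21, 0.0247), Cdc20 (-0.19, 0.0352) and Aurka (-0.21, 0.0127). The block also raised the calls over all genes, to 5212 from 4384 in the main fit. Most differences were small: apart from Mcm6, no member differed in normoxia by more than the -0.48 of Rrm2 on the log2 scale.

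The same comparison in hypoxia used other samples. There 14 of the 40 genes were lower and again only Cdk1 was higher, 35% and 2.5% of the list against 16.9% and 15.8% of all genes, with 32.8% called in either direction. The median was -0.16 against -0.01 over all genes, and 36 of the 40 were negative. The groups did not overlap for 21 genes that were lower and 1 that was higher, against 25.8% and 24.2% of all genes. The sign matched in 32 of 40 genes between normoxia and hypoxia. The call and its direction were shared by 11 genes, 68.8% of those called in normoxia and 73.3% of those called in hypoxia: Bub1b, Cdc6, Cdk1, Cdt1, Gins4, Kif20a, Mcm6, Mcm7, Plk1, Rrm1 and Rrm2. S-phase genes gave 10 lower calls of 22 in normoxia and 10 of 22 in hypoxia, and mitotic genes gave 5 and 4 of 18.

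**Figure D2:**
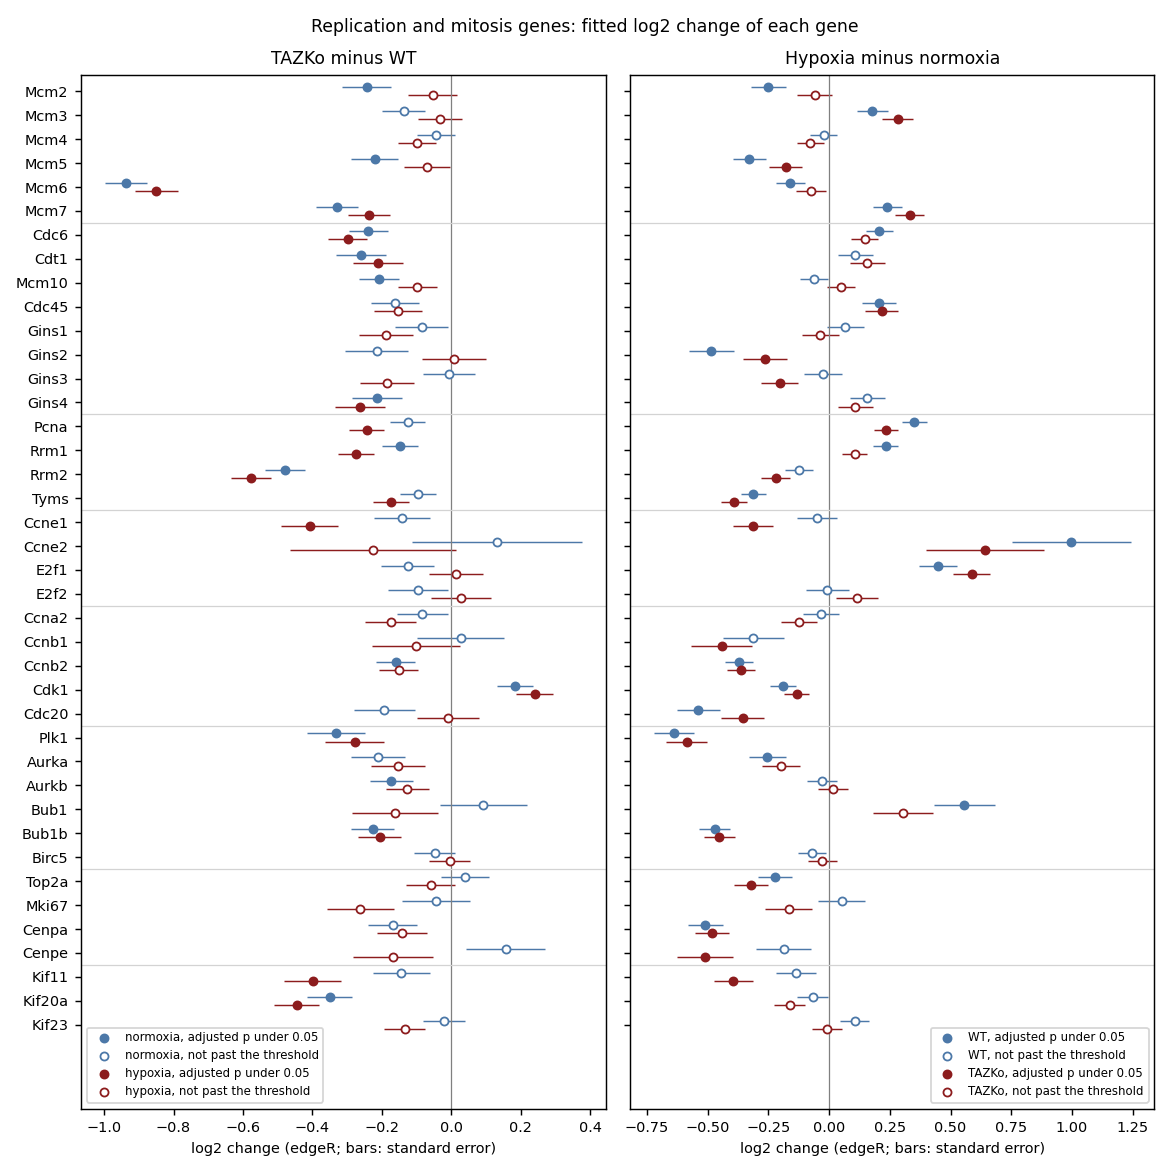
Fitted log2 change of each of the 40 genes (rows, grouped by role with grey lines), with the difference between genotypes on the left and between conditions on the right; bars are standard errors, and filled points passed an adjusted p of 0.05. On the left nearly all points lie below 0, with Mcm6 far to the left and Cdk1 to the right in both conditions; on the right S-phase genes fall on both sides and most mitotic genes lie below 0.

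Within the MCM2-7 ring, Mcm6 stood far from its partners. Mcm6 was at 457.5, 426 and 440 CPM in normoxic WT samples, 243, 220 and 229 in normoxic TAZKo samples, 424, 383 and 378 in hypoxic WT samples and 221, 221 and 215 in hypoxic TAZKo samples. Every library labelled TAZKo lay well below every library labelled WT. On the log2 scale TAZKo libraries were at -0.94 relative to WT in normoxia (SE 0.061, adjusted p = 9.69e-08) and at -0.85 in hypoxia (SE 0.061, adjusted p = 2.81e-07), which are 0.523-fold and 0.555-fold. Per kilobase, Mcm6 went from 101 ± 3.59 CPM in WT normoxia to 52.7 ± 2.7 in TAZKo normoxia (SD, n = 3), below each of the other ring subunits, which lay between 99.1 and 137 there. The proteins assemble as a ring with 1 copy of each subunit. The Mcm6 gene (ENSMUSG00000026355) lies on chromosome 1 from 128331590 to 128359664 on the minus strand (GRCm38). Of its 10 nearest tested neighbours, 5 on each side, the median difference was -0.14 in normoxia and -0.34 in hypoxia. The adjoining Ubxn4 was at -0.32 and -0.29, R3hdm1 at -0.34 and -0.48, and Dars, on the other side, at -0.22 and -0.44. Their part in the result was not tested; Mcm6 differed by more than each of the 10 in both conditions.

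Mcm7 was the other ring gene called in both conditions. It was at 404, 348 and 355 CPM in normoxic WT samples, 294.5, 294.6 and 291.5 in normoxic TAZKo samples, 452, 423 and 432 in hypoxic WT samples and 377, 367 and 364 in hypoxic TAZKo samples. The genotypes did not overlap in either condition, with log2 differences of -0.33 (adjusted p = 0.000964) and -0.24 (adjusted p = 0.00799). Mcm2, used widely as a proliferation marker, was at 437, 370 and 380 CPM in normoxic WT samples, 336, 334 and 332 in normoxic TAZKo samples, 362.5, 321.5 and 313.5 in hypoxic WT samples and 317, 329 and 315 in hypoxic TAZKo samples. It was lower in TAZKo libraries in normoxia (-0.24, adjusted p = 0.0187), whereas in hypoxia the groups overlapped (-0.05, adjusted p = 0.609). Mcm5 was at 548, 468 and 474 CPM in normoxic WT samples, 437, 427.5 and 414 in normoxic TAZKo samples, 420.3, 392 and 374.5 in hypoxic WT samples and 379.5, 385 and 366 in hypoxic TAZKo samples. Its normoxia difference of -0.22 (adjusted p = 0.0235) leaned on WT normoxia sample 1, the highest value: without that sample it was -0.15 (adjusted p = 0.0504). Mcm3 (-0.14, adjusted p = 0.116) and Mcm4 (-0.05, adjusted p = 0.586) did not pass in normoxia, nor in hypoxia (-0.03 and -0.10).

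**Figure D3:**
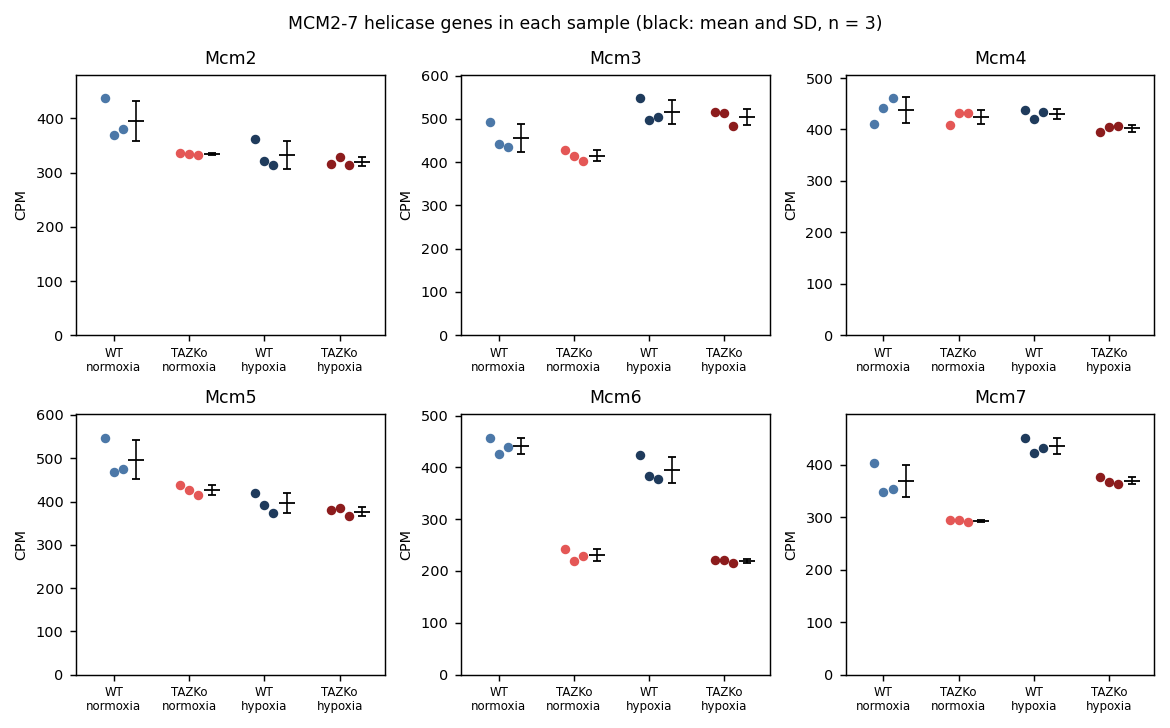
Level (CPM, y axis from 0) of the 6 MCM2-7 genes in each of the 12 samples, by group on the x axis; coloured points are samples and black marks are the mean and SD (n = 3). In the Mcm6 panel all TAZKo samples, at 215 to 243 CPM, lie far below all WT samples, at 378 to 458 CPM.

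Among the genes that license and fire origins, 4 of 8 were lower in TAZKo libraries in normoxia and 3 in hypoxia. Those are 50% and 37.5% of a small group, against 14.9% and 16.9% of all genes. Cdt1, the loading factor that is destroyed once S phase starts, was at 173, 151 and 156 CPM in normoxic WT samples, 140, 126.5 and 134 in normoxic TAZKo samples, 184, 162 and 170.5 in hypoxic WT samples and 151, 156 and 139 in hypoxic TAZKo samples. The groups did not overlap in either condition (-0.26, adjusted p = 0.0148, and -0.21, adjusted p = 0.0384). Cdc6, its partner in loading, was at 102, 104 and 104 CPM in normoxic WT samples, 89.8, 86.5 and 86.4 in normoxic TAZKo samples, 122, 110.3 and 125 in hypoxic WT samples and 98.4, 96.7 and 95.7 in hypoxic TAZKo samples. Its difference was -0.24 (adjusted p = 0.00598) and -0.30 (adjusted p = 0.00122), with no overlap and with the call kept in each of the 22 alternatives tried. Gins4, of the GINS complex, was also lower in both conditions (-0.21 and -0.26), and Mcm10, which activates the helicase, in normoxia (-0.21, adjusted p = 0.0138; -0.21 and 0.0624 with only the samples compared; in hypoxia -0.10, adjusted p = 0.216). Cdc45, Gins1, Gins2 and Gins3 did not pass in either condition, with log2 differences from -0.22 (Gins2, normoxia) to 0.01 (Gins2, hypoxia). The Cdt1 call in hypoxia was lost without WT hypoxia sample 1 (-0.17, adjusted p = 0.0988) or 3 (-0.23, 0.0604) or TAZKo hypoxia sample 1 (-0.23, 0.0616) or 3 (-0.17, 0.123), and under upper quartile scaling or library size alone. The Gins4 call was lost in normoxia without WT normoxia sample 1 (-0.15, adjusted p = 0.0904) or TAZKo normoxia sample 2 (-0.23, 0.0629), and in hypoxia without TAZKo hypoxia sample 3 (-0.23, 0.0521). Mcm5, Cdt1, Gins2, Gins3 and Gins4 all lie on chromosome 8, whose 796 tested genes had a median of -0.16 in normoxia and -0.15 in hypoxia.

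Of the 4 nucleotide and clamp genes, 4 were lower in TAZKo libraries in hypoxia and 2 in normoxia. Those are 100% and 50% of a small group, against 16.9% and 14.9% of all genes. Rrm2, the regulated subunit of ribonucleotide reductase, which makes deoxynucleotides, was at 260, 275 and 270 CPM in normoxic WT samples, 197, 197 and 184.5 in normoxic TAZKo samples, 228.5, 256 and 255 in hypoxic WT samples and 164, 162.5 and 169 in hypoxic TAZKo samples. No TAZKo library reached a WT library of the same condition, and the differences of -0.48 (SE 0.058, adjusted p = 3.49e-05) and -0.58 (SE 0.058, adjusted p = 6.78e-06) were the next after Mcm6 among the S-phase genes. Its partner subunit Rrm1 differed by -0.15 (adjusted p = 0.0446) and -0.28 (adjusted p = 0.00111). Pcna, the sliding clamp of the polymerases, was at 179, 180.3 and 181 CPM in normoxic WT samples, 161, 165 and 169 in normoxic TAZKo samples, 222, 239 and 228 in hypoxic WT samples and 191, 193 and 197 in hypoxic TAZKo samples. Pcna did not overlap between genotypes in either condition, and passed in hypoxia (-0.24, adjusted p = 0.00213) but not in normoxia (-0.13, adjusted p = 0.0744). Tyms, which makes thymidylate, passed in hypoxia (-0.18, adjusted p = 0.0201) and not in normoxia (-0.10, adjusted p = 0.188). The hypoxia call of Tyms was lost with an offset for GC content (-0.15, adjusted p = 0.0564) and with no filter (-0.16, 0.203), which leaves 3 of 4. The normoxia call of Rrm1 was lost without TAZKo normoxia sample 2 (-0.17, adjusted p = 0.0569) or 3 (-0.17, 0.0562).

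Of the G1/S cyclins and E2F genes, 0 of 4 passed between genotypes in normoxia by edgeR (0 also at an unadjusted p under 0.05, which 40.5% of all genes passed, and 0 by DESeq2) and 1 in hypoxia. Among all genes 30.4% and 32.8% passed by edgeR. Ccne1, a cyclin that drives entry into S phase, was at 26.1, 23.7 and 23.0 CPM in normoxic WT samples, 21.9, 23.0 and 21.02 in normoxic TAZKo samples, 21.9, 23.6 and 24.6 in hypoxic WT samples and 16.0, 18.1 and 18.7 in hypoxic TAZKo samples. Only in hypoxia were the groups apart, and the difference there was -0.41 (SE 0.082, adjusted p = 0.00176). E2f1 differed by -0.13 and 0.01, E2f2 by -0.10 and 0.03, and Ccne2 by 0.13 and -0.23 with a standard error near 0.24.

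Of the 18 mitotic genes, 6 passed between genotypes in normoxia and 5 in hypoxia. Those are 33.3% and 27.8%, against 30.4% and 32.8% of all genes, so the number of calls is near the background. Lower calls were 27.8% and 22.2%, against 14.9% and 16.9% of all genes. Plk1, the kinase that drives mitotic entry and spindle assembly, was at 176, 151 and 143 CPM in normoxic WT samples, 124, 129 and 120 in normoxic TAZKo samples, 108, 103 and 90.3 in hypoxic WT samples and 80.1, 85.1 and 83.5 in hypoxic TAZKo samples. It was lower in TAZKo libraries in both conditions (-0.33, adjusted p = 0.00795, and -0.28, adjusted p = 0.0206), with no overlap. Bub1b, of the spindle checkpoint, was also lower in both (-0.23 and -0.21), and Ccnb2 (-0.16, adjusted p = 0.0458) and Aurkb (-0.17, adjusted p = 0.0481) only just passed in normoxia. Birc5 and Bub1 did not pass in either condition. In hypoxia the Plk1 call was lost without WT hypoxia sample 1 (-0.24, adjusted p = 0.0672) or 2 (-0.27, 0.0617) or TAZKo hypoxia sample 1 (-0.26, 0.0694), and the Bub1b call without WT hypoxia sample 1 (-0.16, 0.0601) or TAZKo hypoxia sample 1 (-0.19, 0.0667) or 3 (-0.20, 0.0627). Without WT normoxia sample 1, Ccnb2 was at -0.11 (adjusted p = 0.0953) and Aurkb at -0.11 (adjusted p = 0.111). Ccnb2 was also lost without TAZKo normoxia sample 1 (-0.19, 0.0565) or 3 (-0.19, 0.0545), and Aurkb without TAZKo normoxia sample 2 (-0.21, 0.0553) or 3 (-0.20, 0.0704).

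Of the mitotic kinesins, Kif20a, which acts in cytokinesis, was at 253, 225 and 224 CPM in normoxic WT samples, 189.5, 176 and 185 in normoxic TAZKo samples, 218, 227 and 225 in hypoxic WT samples and 153, 170.3 and 169 in hypoxic TAZKo samples. The genotypes were apart in both conditions (-0.35, adjusted p = 0.000968, and -0.45, adjusted p = 0.00014). Kif20a lies on chromosome 18, whose 360 tested genes had medians of -0.22 and -0.28. Kif11, which pushes spindle poles apart, was at 258.5, 323 and 335 CPM in normoxic WT samples, 284, 276 and 271 in normoxic TAZKo samples, 271, 290 and 273 in hypoxic WT samples and 213, 201 and 217.5 in hypoxic TAZKo samples. WT normoxia sample 1 lay below all TAZKo normoxia samples, and only in hypoxia did the groups separate (-0.40, adjusted p = 0.00216; in normoxia -0.14, adjusted p = 0.211). Kif11 lies on chromosome 19, with medians of -0.27 and -0.28 over 492 genes. Kif23 did not pass (-0.02 and -0.14).

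Cdk1, the kinase that cyclin B activates at mitosis, went the other way. It was at 293, 277 and 285.5 CPM in normoxic WT samples, 326, 324 and 321 in normoxic TAZKo samples, 264, 245 and 241 in hypoxic WT samples and 289.5, 297 and 298 in hypoxic TAZKo samples. Every TAZKo library lay above every WT library of its condition (0.18, adjusted p = 0.0157, and 0.24, adjusted p = 0.003). Cdk1 lies on chromosome 10, whose 676 tested genes had a median of 0.31 in normoxia and 0.29 in hypoxia, and its 10 nearest tested neighbours had medians of 0.28 and 0.25. Cdk1 was thus below its chromosome's median in both conditions. In normoxia its call was lost without WT normoxia sample 2 (0.13, adjusted p = 0.114) or 3 (0.15, 0.0782), without TAZKo normoxia sample 1 (0.15, 0.087), 2 (0.15, 0.1) or 3 (0.16, 0.0817), and without TAZKo hypoxia sample 1 (0.15, 0.0531), 2 (0.15, 0.0507) or 3 (0.15, 0.0523); in hypoxia it was kept in each of the 22 alternatives.

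Chromosome medians therefore moved with some genotype differences, and their part was not tested. Those of chromosomes 3 and 4 were 0.131 and 0.128 in normoxia and 0.044 and 0.125 in hypoxia. Ccna2 and Cenpe lie on chromosome 3, and Ccne2, E2f2 and Cdc20 on chromosome 4. With each gene taken relative to the median of its chromosome, the median over the 40 genes was -0.13 in normoxia and -0.14 in hypoxia, and 34 and 36 of 40 were negative. Without the 8 members on chromosomes 8, 10, 18 and 19, 11 of 32 genes were called in normoxia and 10 of 32 in hypoxia. Their medians were -0.14 and -0.16. All of these calls were lower, since Cdk1 was among the members left out. Among all genes 14.9% and 16.9% were called lower, and 30.4% and 32.8% in either direction. The counts are thus near the share called in either direction and above the share called lower. Members on chromosomes 3 and 4 were kept. Without WT normoxia sample 1, 8 S-phase and 4 mitotic genes were lower in normoxia and Cdk1 was higher. Of all genes, 4961 were then called there, against 4384 with all samples. That sample is in neither hypoxia group, but the filter, scaling and shared spread were refitted without it. In hypoxia 10 S-phase and 8 mitotic genes were then lower, and 6149 of all genes were called in either direction, against 4723 with all samples.

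Of the proliferation markers in common use, Mcm2 passed between genotypes in normoxia and Pcna in hypoxia by edgeR. Mki67, Top2a and Ccnb1 passed in neither by edgeR. Ccnb1 differed by 0.03 in normoxia (adjusted p = 0.9) and by -0.10 in hypoxia (adjusted p = 0.58). Mki67, the Ki-67 antigen of cycling cells, was at 587, 613 and 648.5 CPM in normoxic WT samples, 629, 561 and 601 in normoxic TAZKo samples, 547, 662 and 706.5 in hypoxic WT samples and 554.5, 465 and 578 in hypoxic TAZKo samples. The groups overlapped throughout (-0.05, adjusted p = 0.775, in normoxia and -0.26, adjusted p = 0.053, in hypoxia), although DESeq2 called Mki67 lower in hypoxia (adjusted p = 0.0393), as did edgeR without WT hypoxia sample 1 (-0.37, adjusted p = 0.00631), WT normoxia sample 1 (-0.26, 0.0285) or TAZKo hypoxia sample 3 (-0.33, 0.0393). Top2a was at 1082, 1289 and 1317 CPM in normoxic WT samples, 1252, 1273 and 1264 in normoxic TAZKo samples, 1076, 1059 and 1028 in hypoxic WT samples and 996, 971 and 1067 in hypoxic TAZKo samples. Its differences between genotypes were 0.04 and -0.06 with a standard error of 0.07. A p above the threshold does not show that these levels were equal.

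The second comparison asks what 24 h of hypoxia did to the programme in each genotype. In WT libraries 22 of 40 genes passed, 9 higher and 13 lower, and in TAZKo libraries 22 passed, 6 higher and 16 lower. Hypoxia moved much of the transcriptome, with 51% of all genes called in WT (26% higher, 25% lower) and 43.8% in TAZKo (22.2% higher, 21.6% lower), so the number of calls is near the background. Samples of the 2 conditions did not overlap for 9 genes that were higher and 14 that were lower in WT, against 28.1% and 26.5% of all genes, and for 9 and 20 in TAZKo, against 30.3% and 30.9%. The direction differed between S-phase and mitotic genes. Of the 22 S-phase genes, 8 rose and 5 fell in WT and 6 rose and 6 fell in TAZKo. Of the 18 mitotic genes, 1 rose and 8 fell in WT and 0 rose and 10 fell in TAZKo by edgeR; in TAZKo 1 mitotic gene, Bub1, was higher at an unadjusted p under 0.05 (50.6% of all genes passed that in either direction), and DESeq2 called it higher.

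The median change of the mitotic genes was -0.19 in WT and -0.26 in TAZKo, negative under each of the scalings tried. The median of the S-phase genes was 0.03 in WT and 0.08 in TAZKo, but it was -0.08 and -0.02 with library size alone, and -0.03 in WT with upper quartile scaling. With library size alone, the median over all genes moved by -0.11 (WT) and -0.09 (TAZKo); minus that median, the S-phase medians were 0.02 and 0.09 under it, as they were with TMM. The split of calls over all 40 genes moved with library size alone, to 5 higher and 21 lower in WT and 4 higher and 22 lower in TAZKo. Upper quartile scaling gave 6 higher and 16 lower of the 40 in WT. Without WT hypoxia sample 1 the S-phase median in WT was -0.05, with 4 S-phase genes higher and 5 lower, and the mitotic count stayed at 1 higher and 8 lower. The median over all genes moved in that run too, to -0.04 from 0.009 with all samples. The same sign was seen in 34 of 40 genes in WT and TAZKo, which share no samples, and 16 genes were called in the same direction in both, 72.7% of the calls of each.

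A measure that does not depend on scaling is the mean log2 CPM of the mitotic genes minus that of the S-phase genes within a sample, centred over the 12 samples. It was 0.036, 0.112 and 0.098 in normoxic WT samples, 0.191, 0.189 and 0.191 in normoxic TAZKo samples, -0.212, -0.105 and -0.176 in hypoxic WT samples and -0.142, -0.118 and -0.065 in hypoxic TAZKo samples. All 6 hypoxia samples lay below all 6 normoxia samples. In normoxia TAZKo lay above WT, and in hypoxia the genotypes overlapped. Sequencing lanes, numbered 4 and 5 in the names of the deposited tables, each held samples of every group. Each normoxia group had 2 samples in lane 4 and 1 in lane 5, and each hypoxia group had 1 and 2. The hypoxia difference was -0.29 in lane 4 and -0.24 in lane 5 for WT and -0.33 and -0.28 for TAZKo. Each of these differences rests on 1 library of 1 condition. No test was made, since the genes were chosen with results known.

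**Figure D4:**
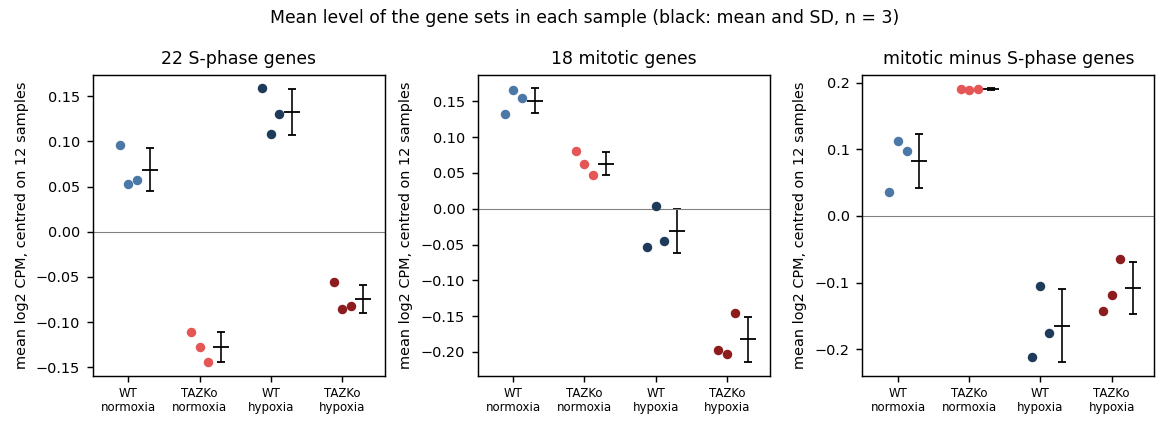
Mean log2 CPM of the 22 S-phase genes (left) and of the 18 mitotic genes (middle), and their difference (right), in each sample, centred on the 12 samples, by group on the x axis; black marks are the mean and SD (n = 3). TAZKo points lie below WT points of the same condition in the left and middle panels, and in the right panel all hypoxia samples (-0.212 to -0.065) lie below all normoxia samples (0.036 to 0.191).

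Among the S-phase genes that rose, Pcna changed by 0.35 in WT (SE 0.05, adjusted p = 5.88e-05) and 0.23 in TAZKo (adjusted p = 0.00193), with no overlap between conditions in the values given above. E2f1, the activating E2F, was at 117, 102 and 101 CPM in normoxic WT samples, 105, 94.4 and 94.0 in normoxic TAZKo samples, 156, 139 and 141 in hypoxic WT samples and 153, 151 and 137 in hypoxic TAZKo samples. All hypoxia samples exceeded all normoxia samples (0.45, adjusted p = 0.000279, and 0.59, adjusted p = 4.12e-05). Ccne2, the second E-type cyclin, was at 26.3, 51.4 and 50.2 CPM in normoxic WT samples, 34.3, 51.8 and 53.9 in normoxic TAZKo samples, 59.6, 93.5 and 102 in hypoxic WT samples and 76.1, 65.4 and 76.9 in hypoxic TAZKo samples. The conditions did not overlap, but sample 1 was lowest in 3 of the 4 groups. Its change was 0.997 in WT (SE 0.244, adjusted p = 0.00376), the largest rise of the list, and 0.64 in TAZKo (SE 0.243, adjusted p = 0.0466). Without WT normoxia sample 1 or any other sample, Ccne2 in WT kept its call (0.75 to 1.14 over the 22 alternatives). In TAZKo it was lost without any 1 of the 6 TAZKo samples, with values from 0.43 (adjusted p = 0.209, without TAZKo normoxia sample 1) to 0.73 (adjusted p = 0.0641, without TAZKo normoxia sample 3), and without WT sample 2 or 3 of either condition (0.61 in each, adjusted p = 0.0569 to 0.0727). The TAZKo call was also lost by DESeq2 (0.64, adjusted p = 0.0706), with library size alone (0.55, 0.0752) and with lane as a covariate (0.55, 0.06).

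The MCM2-7 ring split under hypoxia. Mcm7 changed by 0.24 in WT (adjusted p = 0.00446) and 0.33 in TAZKo (adjusted p = 0.000586), and Mcm3 by 0.18 (adjusted p = 0.029) and 0.28 (adjusted p = 0.00242), while Mcm5 changed by -0.33 (adjusted p = 0.00107) and -0.18 (adjusted p = 0.0455). Mcm2 fell in WT (-0.25, adjusted p = 0.00954), as did Mcm6 (-0.16, adjusted p = 0.0402), and neither passed in TAZKo (-0.06 and -0.07). Mcm4 did not pass in either. The WT call of Mcm3 was lost under every alternative that left out WT normoxia sample 2 (0.10) or 3 (0.09), WT hypoxia sample 1 (0.08), 2 (0.15) or 3 (0.14) or any TAZKo sample (0.12 in each), and under the other scalings, down to 0.07 with library size alone (adjusted p = 0.383). TAZKo samples enter this contrast only through the refitted filter, scaling and spread. Without any 1 of them, the all-gene median for hypoxia in WT was -0.05, against 0.01 with all samples. The WT call of Mcm7 was lost without WT normoxia sample 2 (0.15, adjusted p = 0.0814) or 3 (0.15, 0.0712), without WT hypoxia sample 1 (0.16, 0.0557), and with library size alone (0.13, 0.0971). The WT call of Mcm6 was lost without WT normoxia sample 1 (-0.14, adjusted p = 0.0676), and the TAZKo call of Mcm5 without TAZKo normoxia sample 1 (-0.20, 0.0608) or 2 (-0.20, 0.0563) or TAZKo hypoxia sample 3 (-0.19, 0.0723).

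Of the origin genes, Gins2 was at 117, 91.8 and 89.4 CPM in normoxic WT samples, 87.3, 83.4 and 85.5 in normoxic TAZKo samples, 75.99, 69.5 and 67.1 in hypoxic WT samples and 75.5, 68.04 and 69.9 in hypoxic TAZKo samples. It fell in both genotypes without overlap (-0.49, adjusted p = 0.000591, and -0.26, adjusted p = 0.0315), though 70.3% of its words occur in Gse1 too. Cdc45 was higher in both (0.21, adjusted p = 0.0233, and 0.22, adjusted p = 0.0216), Cdc6 in WT (0.21, adjusted p = 0.0078; in TAZKo 0.15, adjusted p = 0.0519), and Gins3 lower in TAZKo (-0.20, adjusted p = 0.0452). Cdt1, Mcm10, Gins1 and Gins4 did not pass in either genotype, except that Gins4 was higher in WT with the replicate number as a block (0.16, adjusted p = 0.0301). These calls were weak: that of Cdc45 in WT was lost without any 1 of the samples other than WT normoxia sample 1 (0.11 to 0.19) and with library size alone (0.10, adjusted p = 0.28), and in TAZKo without TAZKo normoxia sample 2 (0.19, 0.0804) or 3 (0.15, 0.149), TAZKo hypoxia sample 1 (0.15, 0.154) or 3 (0.17, 0.105). That of Cdc6 was lost without WT normoxia sample 2 (0.16, adjusted p = 0.0646) or 3 (0.15, 0.0681), TAZKo normoxia sample 2 (0.15, 0.0518), or WT hypoxia sample 1 (0.14, 0.0821) or 3 (0.11, 0.147), and with library size alone (0.10, 0.161). Gins3 was lost without TAZKo normoxia sample 1 (-0.22, adjusted p = 0.0701) or 2 (-0.22, 0.0755) or TAZKo hypoxia sample 1 (-0.22, 0.0778) or 2 (-0.18, 0.115), and Gins2 in TAZKo without TAZKo hypoxia sample 2 (-0.26, 0.0709) or 3 (-0.28, 0.0546). Where a TAZKo sample was left out, Cdc45 in WT was at 0.15, and the all-gene median for hypoxia in WT had moved to -0.05 from 0.01.

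The genes of nucleotide supply went in both directions. Tyms was at 225, 216 and 217.5 CPM in normoxic WT samples, 216, 199 and 201 in normoxic TAZKo samples, 181, 172 and 176.5 in hypoxic WT samples and 158, 156 and 156 in hypoxic TAZKo samples. It fell in both genotypes (-0.31, adjusted p = 0.000219, and -0.39, adjusted p = 4.67e-05) without overlap. Rrm1 rose in WT (0.23, adjusted p = 0.00194) and did not pass in TAZKo (0.11, adjusted p = 0.119), and Rrm2 fell in TAZKo (-0.22, adjusted p = 0.00729) and did not pass in WT (-0.12, adjusted p = 0.093). Ccne1 fell in TAZKo (-0.31, adjusted p = 0.00668; in WT -0.05), and E2f2 did not pass in either genotype. The WT rise of Rrm1 was lost with an offset for GC content (0.12, adjusted p = 0.186).

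Most of the mitotic genes that fell did so in both genotypes. Plk1, with the values given above, fell by a log2 change of -0.64 in WT (SE 0.083, adjusted p = 2.61e-05) and -0.59 in TAZKo (SE 0.084, adjusted p = 8.25e-05). Cdc20, which activates the anaphase-promoting complex, was at 200, 163 and 158.5 CPM in normoxic WT samples, 161, 150 and 146 in normoxic TAZKo samples, 128, 122 and 109 in hypoxic WT samples and 118, 125 and 113 in hypoxic TAZKo samples. All hypoxia samples lay below all normoxia samples (-0.54, adjusted p = 0.00019, and -0.36, adjusted p = 0.00507). Cenpa, the histone H3 variant that marks centromeres, was at 233.5, 221 and 221 CPM in normoxic WT samples, 211, 189 and 201 in normoxic TAZKo samples, 175, 154 and 145 in hypoxic WT samples and 138, 145 and 147 in hypoxic TAZKo samples. It fell by -0.51 (adjusted p = 4.63e-05) and -0.48 (adjusted p = 0.000105), again without overlap. Bub1b (-0.47 and -0.45), Ccnb2 (-0.37 and -0.36), Top2a (-0.22 and -0.32) and Cdk1 (-0.19 and -0.13) also fell in both genotypes. The calls of Plk1, Cdc20, Cenpa, Bub1b, Ccnb2 and Top2a were kept in each of the 22 alternatives in both genotypes. That of Cdk1 in TAZKo was lost without TAZKo normoxia sample 2 (-0.16, adjusted p = 0.051) or TAZKo hypoxia sample 1 (-0.15, 0.0656).

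**Figure D5:**
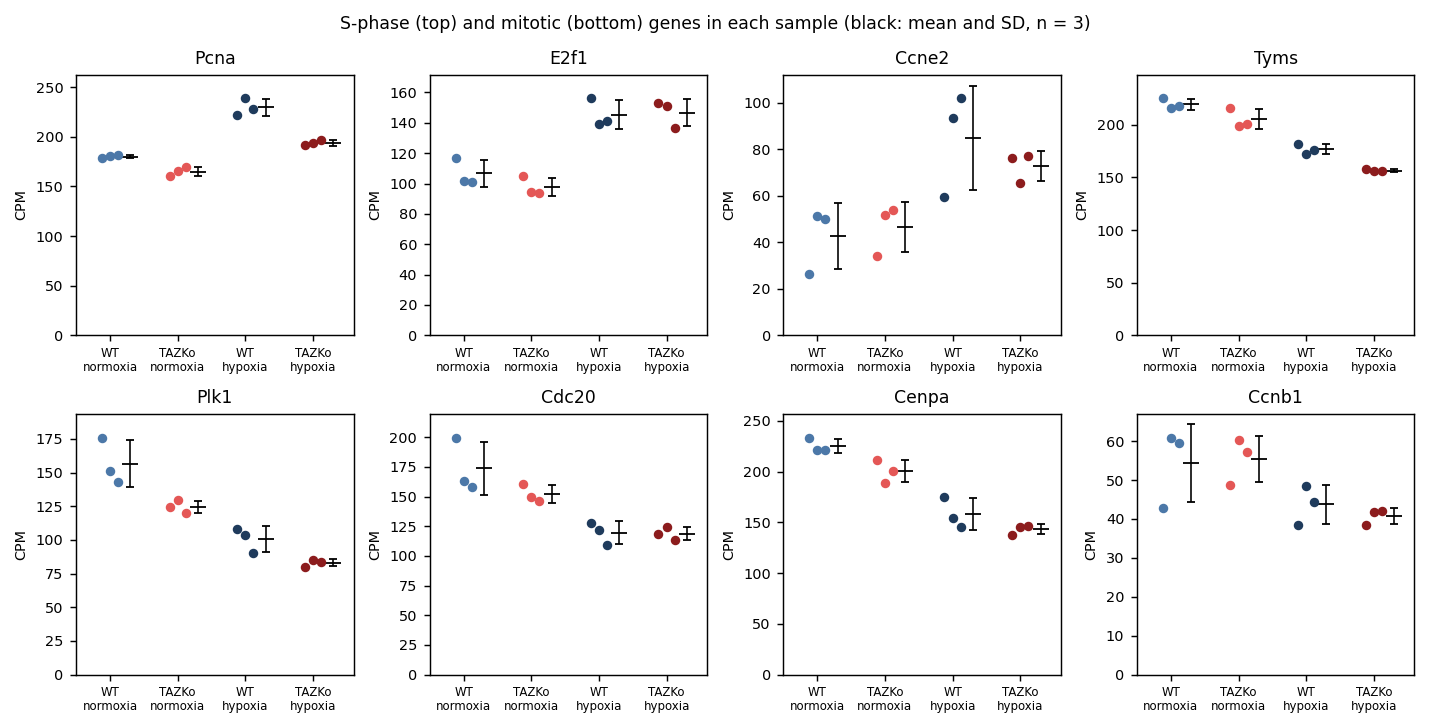
Level (CPM, y axis from 0) of 4 S-phase genes (top) and 4 mitotic genes (bottom) in each of the 12 samples, by group on the x axis; coloured points are samples and black marks are the mean and SD (n = 3). Pcna, E2f1 and Ccne2 are higher and Tyms is lower in both hypoxia groups, and Plk1, Cdc20 and Cenpa are lower in both, with no overlap between conditions; Ccnb1 overlaps in WT.

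Ccnb1, the cyclin that starts mitosis, was at 42.9, 60.9 and 59.4 CPM in normoxic WT samples, 48.7, 60.3 and 57.3 in normoxic TAZKo samples, 38.6, 48.5 and 44.3 in hypoxic WT samples and 38.5, 41.8 and 42.0 in hypoxic TAZKo samples. WT normoxia sample 1 lay inside the hypoxia range. The change in WT was -0.31 with an adjusted p of 0.0522, and -0.46 (adjusted p = 0.00084) without that sample; it also passed by DESeq2 (-0.32, adjusted p = 0.0252) and with the replicate number as a block (-0.31, adjusted p = 0.00242). In TAZKo it was -0.44 (adjusted p = 0.0112). Cenpe, the kinetochore motor, was at 167, 186 and 198 CPM in normoxic WT samples, 215, 202 and 197 in normoxic TAZKo samples, 130, 172 and 181 in hypoxic WT samples and 149.5, 125 and 156 in hypoxic TAZKo samples. It separated the conditions in TAZKo (-0.51, adjusted p = 0.00263) and not in WT (-0.19, adjusted p = 0.19). Kif11 likewise passed in TAZKo (-0.39, adjusted p = 0.00161) and not in WT (-0.14, adjusted p = 0.178). Aurka, the centrosome kinase, fell in WT (-0.26, adjusted p = 0.0138; in TAZKo -0.20, adjusted p = 0.0541).

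Some mitotic genes did not follow. Bub1, a checkpoint kinase with 41% GC in its longest transcript, was the only mitotic gene that rose, by 0.56 in WT (SE 0.125, adjusted p = 0.00204), and was 0.30 in TAZKo (adjusted p = 0.0638); its WT call was kept in each of the 22 alternatives, from 0.39 to 0.61. Aurkb, Birc5, Ccna2, Mki67, Kif20a and Kif23 did not pass in either genotype, with changes from -0.17 (Mki67, TAZKo) to 0.11 (Kif23, WT).

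The third comparison asks whether the hypoxia response differed between genotypes. None of the 40 genes passed the interaction test (edgeR, 0 of 40, against 2.43% of all genes, 0.722% higher and 1.71% lower), with 2 at an unadjusted p under 0.05, Ccne1 and Kif11, against 15.8% of all genes. Leaving out 1 sample moved the latter count between 0 and 6, the 6 being Mcm2, Mcm5, Gins2, Ccne1, Mki67 and Cenpe without WT hypoxia sample 1 (lowest adjusted p 0.0763). It was 4 without WT normoxia sample 2 or 3, 1 without WT normoxia sample 1 or TAZKo hypoxia sample 3, and 0 without each of the other samples. DESeq2 also called 0, with 1 at an unadjusted p under 0.05, and the lowest adjusted p in edgeR with all samples was 0.279. The responses of Ccne1 and Kif11 differed by -0.26 each (SE 0.115 and 0.116), and the largest difference was -0.36 for Ccne2 (SE 0.343). The standard errors, from 0.071 for Pcna to 0.343 for Ccne2, set how small a difference could have been seen. Genes that passed in 1 genotype and not in the other, such as Mcm2, Rrm1, Cenpe and Kif11, were thus not shown to differ in response.

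The rest of the pathway was read from 4 lists of 105 other genes, all tested. All genes gave 15.6% higher and 14.9% lower between genotypes in normoxia and 15.8% and 16.9% in hypoxia, and the 105 genes gave 12.4% and 19%, then 8.57% and 25.7%. Between genotypes, the 14 genes of origin recognition, licensing control and firing kinases gave 4 higher and 2 lower in normoxia and 1 higher and 4 lower in hypoxia. Mtbp, which works with treslin in origin firing, was higher in normoxia (0.43, adjusted p = 3.82e-05), and Dbf4, the activator of the Cdc7 kinase, was lower in both conditions (-0.31, adjusted p = 0.0161, and -0.44, adjusted p = 0.00156). The 32 genes of polymerases, clamp loader and fork proteins gave 3 higher and 7 lower, then 3 higher and 8 lower. Prim1, the primase catalytic subunit, was higher in both (0.52 and 0.32), whereas the flap endonuclease Fen1 (-0.65 and -0.50), the chromatin assembly subunit Chaf1b (-0.43 and -0.37) and the clamp loader subunit Rfc3 (-0.36 and -0.49) were lower in both. The 40 further mitotic genes gave 1 higher and 7 lower in normoxia, among them Incenp of the chromosomal passenger complex (-0.40, adjusted p = 0.000448), and 1 higher and 12 lower in hypoxia, with lower calls reduced to 8 under upper quartile scaling or library size alone.

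In the G1 list, 2 of the 3 cyclin D genes were higher in TAZKo libraries and the other, Ccnd3, was lower in normoxia (-0.38, adjusted p = 0.00233) and did not pass in hypoxia (-0.14, adjusted p = 0.198); Ccnd3 was named after its values were seen. Cyclin D1, Ccnd1, averaged 14.2 ± 1.3 CPM in normoxic WT samples (SD, n = 3), 33.9 ± 3.27 in normoxic TAZKo samples, 26.1 ± 3.93 in hypoxic WT samples and 57.7 ± 5 in hypoxic TAZKo samples. Cyclin D2, Ccnd2, averaged 33.9 ± 0.885, 91.7 ± 4.75, 79.8 ± 15.2 and 135 ± 5.04 CPM in the same order (SD, n = 3). Ccnd1 and Ccnd2 were higher in TAZKo libraries in normoxia (Ccnd1 1.26, adjusted p = 2.95e-06; Ccnd2 1.44, adjusted p = 4.6e-07) and in hypoxia (1.14, adjusted p = 5.04e-06; 0.76, adjusted p = 0.000104). Both also rose with hypoxia, in WT (0.89 and 1.24) and in TAZKo (0.77 and 0.56). Mybl2, the B-Myb factor of mitotic genes, was lower in TAZKo libraries in both conditions (-0.45 and -0.29) and rose with hypoxia in both genotypes (0.37 and 0.53). Of the 19 genes of this list, 5 were higher and 4 lower between genotypes in normoxia, and 4 higher and 3 lower in hypoxia.

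With hypoxia, the origin list gave 7 higher and 0 lower in WT (edgeR; 0 lower also at an unadjusted p under 0.05, which 56.7% of all genes passed in either direction, and 0 by DESeq2) and 5 higher and 1 lower in TAZKo, led by Orc1 of the origin recognition complex (0.72 and 0.54). All genes gave 26% higher and 25% lower in WT and 22.2% and 21.6% in TAZKo, and the 105 genes gave 22.9% and 21%, then 18.1% and 29.5%. The polymerase list gave 6 higher and 6 lower in WT and 4 higher and 9 lower in TAZKo, with Pold2, a subunit of polymerase delta, the lowest (-0.72 and -0.51). The G1 list gave 7 higher and 2 lower, then 10 higher and 3 lower, with E2f5 lowest (-0.83 and -0.59). The further mitotic genes gave 4 higher and 14 lower in WT and 0 higher and 18 lower in TAZKo (edgeR; 2 higher at an unadjusted p under 0.05 and 1 by DESeq2), among them Pttg1, the securin (-0.54 and -0.56), and Spc24 of the NDC80 complex (-0.62 and -0.52). The cytokinesis protein Anln was higher in WT (0.52, adjusted p = 3.89e-05). With library size alone these counts were 3 and 0, then 2 and 3, for the origin list, 4 and 11, then 3 and 14, for the polymerase list, 7 and 3, then 6 and 3, for the G1 list, and 2 and 21, then 0 and 24, for the mitotic list. In the interaction, 2 of the 105 genes passed: Mtbp (-0.37, adjusted p = 0.0173) and Ccnd2 (-0.68, adjusted p = 0.0323). DESeq2 called 2 genes of the origin list, 1 of the G1 list and 2 of the further mitotic genes. Mtbp lost its call without WT normoxia sample 3, TAZKo normoxia sample 1 or 2, WT hypoxia sample 2 or 3, or any TAZKo hypoxia sample (-0.38 to -0.31 over the alternatives), and Ccnd2 without any sample other than WT normoxia sample 1 and WT hypoxia sample 1 (-0.80 to -0.53).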

How the data were processed

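RNA from 12 MEF samples was made into libraries with the TruSeq RNA v2 kit, per the labels' protocols, and the authors deposited whole-number read counts per Ensembl gene, 1 table per sample. The submitters' processing notes name mm10, while the aligner, the counting program and the use of strand are not given in the sources used here. Groups were taken from the sample titles. After filterByExpr, TMM factors were computed, and the edgeR quasi-likelihood test was run (edgeR 4.0.16, limma 3.58.1, R 4.3.3) over 4 groups and 12 samples, with Benjamini-Hochberg adjustment over 14408 genes and a threshold of 0.05. The biological coefficient of variation was 8.62%. Adjusted p values without a tool name are from this fit; a standard error is |log2 change| over the root of the F statistic. Per-sample set levels use log2 CPM with a prior count of 2. The level that 3 counts allow covers counting error only, since no molecular identifiers are named in the labels and reads may be copies of 1 molecule.

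Values in every sample are given for Mcm2, Pcna, Ccnb1, Top2a and Mki67, and for the gene of each role group with the largest change past the threshold in each contrast; E2f1 was added after its values were seen. From the other lists, at most the 2 largest calls in each direction per contrast were named. The 40 genes and all lists were chosen with earlier results of these data known. Gene positions, exon lengths and GC content come from GENCODE M21 on GRCm38 (99.8% of the tested genes have a GC value), and promoters from RefSeq on GRCm38.p6. The alternatives tried were scaling by upper quartile, by DESeq2 size factors or by library size alone, the DESeq2 1.42.0 Wald test, no filter, keeping genes that average 5 CPM or more, the replicate number as a block, lane as a covariate, only the samples compared, and leaving out each sample in turn; a GC content offset and leaving out members on 4 chromosomes were added after seeing the data. The labels do not say what a replicate number stands for. Deviations of same-numbered samples correlated over all genes at 0.149 to 0.354 between WT and TAZKo normoxia. Between WT normoxia and WT hypoxia they correlated at 0.152 to 0.368, with 3 of 3 pairs over 0.1 in each. Samples 2 and 3 also correlated across numbers, at 0.116 and 0.112 in the first contrast and 0.147 and 0.18 in the second. The numbers thus set sample 1 apart in these 2 contrasts, while the pairing of samples 2 and 3 was not settled. Between WT and TAZKo hypoxia the correlations were -0.024 to 0.121, and between TAZKo normoxia and hypoxia -0.024 to 0.095, and these were not taken as paired. The main fit has no block, so its p-values are unpaired in every contrast. The replicate block was run only as an alternative. The scripts were tested on simulated data.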

Additional observations from a re-analysis of the deposited data

How the results depend on the processing

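Of the 75 calls of single members, 51 kept their direction and threshold under every alternative, 24 lost the threshold at least once, and 0 changed direction. With only the samples compared, 10 members and 3314 of all genes were called between genotypes in normoxia, against 16 and 4384 in the main fit. Lane as a covariate lost the calls of Rrm1 and Ccnb2 between genotypes in normoxia and of Mcm6 for hypoxia in WT. For hypoxia in TAZKo it lost those of Mcm5, Gins3, Ccne2 and Cdk1. Without a filter on low counts, the members' median log2 change was -0.177 between genotypes in normoxia, -0.133 for hypoxia in WT and 0.03 in the interaction. The WT hypoxia median was -0.119 with upper quartile scaling, -0.163 with library size alone, -0.096 with the GC content offset and -0.107 with only the samples compared, and the TAZKo hypoxia median was -0.194 with library size alone. Leaving out 1 sample gave 12 to 22 members called between genotypes in normoxia, 12 to 19 in hypoxia, 18 to 26 for hypoxia in WT, 18 to 27 in TAZKo and 0 in the interaction, with medians of -0.212 to -0.118, -0.181 to -0.15, -0.138 to -0.044, -0.151 to -0.102 and -0.028 to 0.031. Among all genes, these runs called 3349 to 4961, 3765 to 6149, 6510 to 7679, 5367 to 7678 and 174 to 711 in the same order. Their all-gene medians were -0.027 to -0.001, -0.017 to -0.008, -0.047 to -0.009, -0.047 to -0.01 and -0.008 to 0.014. With all samples those medians were 0.01, -0.008, 0.009, -0.009 and -0.016. The highest member counts came without WT hypoxia sample 1 (22) and, in the other 3 contrasts, without WT normoxia sample 1. The cause was not tested.

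With the replicate block, 21, 20, 24, 26 and 0 members were called in the same order, with medians of -0.146, -0.158, -0.055, -0.099 and -0.022. Among all genes the block called 5212, 5518, 8032, 7010 and 639, against 4384, 4723, 7355, 6309 and 350 in the main fit. Every main call of a member was kept, and 8 mitotic members in place of 5 were called between genotypes in hypoxia. In the interaction, 5 members had an unadjusted p under 0.05 with it. Between genotypes in hypoxia and between conditions in TAZKo, the samples share only a number.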
